A study of Capsicum annuum with 6 samples.

Results

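Of the 21446 annotated genes considered here, 120 were detected only in loose accession B003 of pepper and not in compact accession B010. They were selected on raw counts, with 10 or more in every one of the 3 B003 libraries and 3 or fewer in every one of the 3 B010 libraries. Since the comparison between the accessions thus chose the genes, their difference between accessions is a description and not a test. Annotated genes are those with a Capann_59 identifier of the cv.59 reference genome, and 21660 of the 24829 genes in the deposited data have one. Stretches of identifiers around 2 candidate genes of the genome-wide association study, Capann_59Chr04g008940 to g010940 and Capann_59Chr07g000010 to g002410, were left out, which removed 6 of the 126 genes that met the count limits.

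RNA sequencing was performed on the first branch sites of both accessions at the early flowering stage, with no treatment named. B003 has a large first branch angle and B010 a small one. Each accession had 3 libraries, and the tissue of 8 plants was pooled for each of them. Since each branch type is represented by a single accession, branch angle and any other difference between the genotypes cannot be told apart. The counts on genes summed to between 31995236 and 36975048 in the B003 libraries and between 29891192 and 47659515 in the B010 libraries, where 3 counts, taken as the upper limit for a gene with no count, were worth 0.0629 to 0.1004 CPM (counts scaled to a library of 1000000). Such limits, and the counting intervals given below, reflect counting error alone. The cv.59 identifiers are not paired with gene names in the data, so no function is given for any gene, and the labelled tissue was not checked against marker genes.

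The shoot of pepper is sympodial: the main stem ends in a flower and growth continues from lateral branches, the earliest of which set the first branch angle. Accessions of a crop commonly differ in which genes they carry and in which genes they transcribe in a given tissue. RNA sequencing against a single reference genome counts a transcript only where its reads align to a gene of that genome. A gene that is missing, a gene that is silent and a gene whose sequence has diverged from the reference all give counts near 0, and these cannot be told apart from counts. In a bulk sample, fewer cells of a type and less RNA per cell cannot be told apart either.

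As the count limits required, the group was detected in every B003 library and nearly empty in B010. The 120 genes took up 59097 counts over the B003 libraries, against 126 counts over the B010 libraries. Summed over the genes, the level was 519, 643 and 611 TMM-scaled CPM in B003 replicates 1, 2 and 3, against 0.969, 1.49 and 1.15 CPM in B010 replicates 1, 2 and 3. TMM scaling corrects the library size for differences in composition. The group held between 0.0552% and 0.0612% of all counts of a B003 library. The 10 genes with the highest mean CPM made up 34.7% of the summed level in B003.

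In B010, 73 of the 120 genes, or 60.8%, had no count in any library. Another 33 genes had counts in 1 B010 library, 12 in 2 libraries and 2 in all 3. Genes with a count numbered 23, 21 and 19 in B010 replicates 1, 2 and 3. Pooled over the B010 libraries, 37 genes had 1 to 3 counts and 10 had 4 or more, with a highest pooled count of 7. Of the 10 genes with the highest mean CPM in B003, 6 were at 0 throughout B010, close to the share in the whole group. The limit of 3 counts had left out genes with more B010 counts. Whether such counts rise with abundance can thus not be read from the group.

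**Figure D1:**
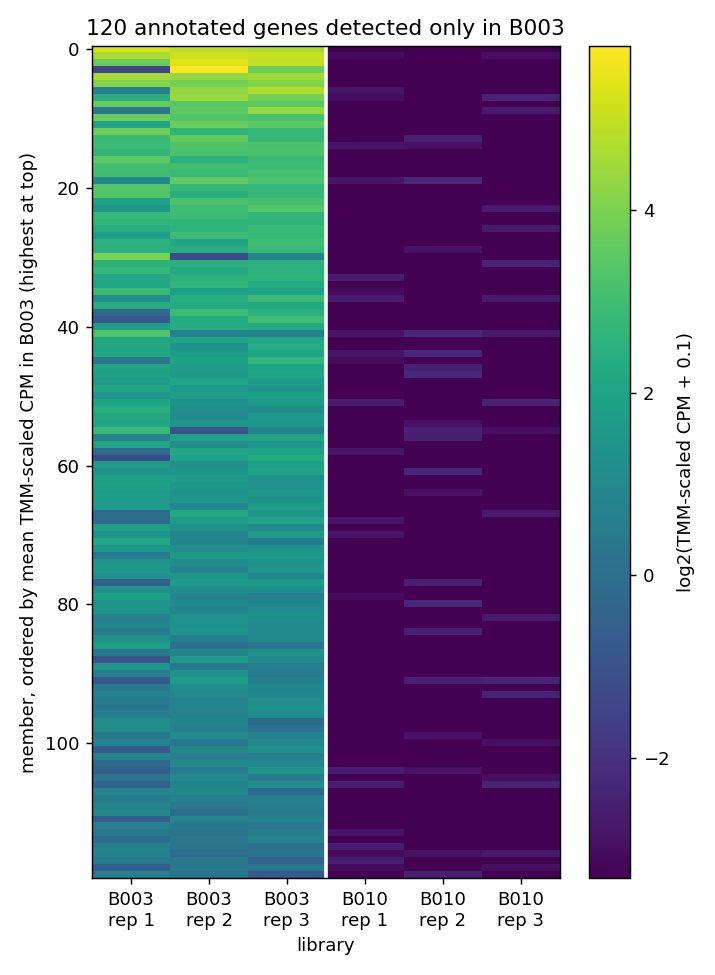
Heat map of the 120 annotated genes detected only in B003, one row per gene ordered by mean TMM-scaled CPM in B003 and one column per library, with colour giving log2(CPM + 0.1). The B003 columns are bright to mid-toned throughout, with darker cells in replicate 1 for some genes, whereas the B010 columns are at the darkest level for the 73 genes with no count there.

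The size of the difference can be bounded only from below for the 73 genes without a B010 count. Against the limit of 3 counts per B010 library, which averaged 0.0868 CPM, their mean levels in B003 were at least 14.0-fold to at least 367-fold higher, with a median of at least 34.2-fold. For the 47 genes with some B010 counts, ratios of the pooled levels ran from 25.2 to 1641, with a median of 139. Of the 118 genes that passed edgeR's expression filter, all 118 were called higher in B003 by its quasi-likelihood test (Benjamini-Hochberg adjusted p up to 0.05, log2 fold change of 1 or more), while 12.8% of all 24738 genes tested were called in that direction. Requiring a log2 fold change of 2, or none, also called 118, against 6.05% and 20.2% of all genes. On log2(FPKM + 1), limma called 111 of the 120 and 9.28% of all genes. With B003 replicate 2 or 3 left out, edgeR called 113 and 114 of the group, against 8.97% and 8.84% of all genes, and with B010 replicate 1 or 2 left out 110 and 114, against 7.28% and 9.36%. The count limits had used the same contrast, so nothing is read from these numbers. The remaining genes, Capann_59Chr01g012750 and Capann_59Chr05g004720, were not tested because a B003 library of each held only 10 counts.

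Across genes, levels are compared in FPKM, the deposited counts that the authors scaled by exon length and by sequencing depth. The mean FPKM in B003 had a median of 5.01 over the 120 genes, with quartiles of 2.105 and 7.81 and a range from 0.587 to 82.0. The other 20524 annotated genes with at least 10 counts in each B003 library had a median of 10.8, with quartiles of 4.43 and 24.1. Of the 120 genes, 56 lay below that lower quartile, 14 lay above the median and 3 lay above the upper quartile. Most of the group was thus of low to moderate abundance. No listed gene had a second-highest library below 1.00 CPM, so the deposited data themselves begin at about 1 CPM in 2 libraries, and weaker transcripts of B003 could not enter the group.

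The exon length per gene, as implied by the counts, was also short in the group. The exon length implied by counts, FPKM and the total counts of a library had a median of 775 bases over the 120 genes, against 1662 bases over the other 20524 genes, and 96 of the 120 were shorter than 1662 bases. Implied lengths of 1 gene from different libraries differed by a median factor of 1.03 over the 13782 genes with at least 200 counts in every library. Genes of the group, with at most 3 counts in a B010 library, are not among them. The precision of their lengths was thus not checked. Where they had B010 counts, those libraries also entered the median over libraries. The lengths depend as well on the total that the authors divided by. Long genes reach a count limit at a lower FPKM than short ones. The implied length ran from 43.9 to 4092 bases in the group, and the lowest value is below the read length of 150 bases.

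Capann_59Chr06g004300 had the highest FPKM of the group. It was counted 977, 1053 and 1012 times in B003 replicates 1, 2 and 3, against 1, 0 and 1 times in B010 replicates 1, 2 and 3. This came to 82.0 ± 9.07 FPKM in B003 (SD, n = 3), and the pooled level in B003 was 1641 times that in B010, with a 95% counting interval from 454 to 13560.4. Its implied length was only 369 bases. The steadiness of its counts over the B003 libraries set it apart from several other abundant genes described further on.

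Capann_59Chr02g029780 had the highest CPM, with 1554, 931 and 797 counts in the B003 libraries and none in B010. Its level was 31.9 ± 6.97 CPM in B003 (SD, n = 3), at least 367-fold above the limit of detection in B010. Per length it was less prominent, at 10.7 ± 2.99 FPKM in B003 (SD, n = 3), because the implied length was 2970 bases. Capann_59Chr06g016840 was counted 940, 620 and 692 times in B003 and had no count in B010, which is at least 255-fold higher. With 38.3 ± 5.46 FPKM in B003 (SD, n = 3), it was next to Capann_59Chr06g004300 in level per length, and the libraries of these genes did not overlap.

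Capann_59Chr07g011840 and Capann_59Chr11g010120 were similarly even across the B003 libraries and absent from the B010 counts. Capann_59Chr07g011840 was counted 681, 444 and 531 times in B003, or 6.09 ± 0.896 FPKM (SD, n = 3), at least 188-fold above the limit in B010. Capann_59Chr11g010120 had 498, 335 and 348 counts in B003, or 13.7 ± 1.98 FPKM (SD, n = 3), at least 134-fold above that limit. The coefficients of variation of their TMM-scaled CPM over the B003 libraries were 10.4% and 8.20%.

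The other 5 of the 10 most abundant genes were more than 2-fold lower in B003 replicate 1 than in the mean of replicates 2 and 3. Capann_59Chr01g012750 was the most uneven of them, with 10, 1725 and 402 counts in B003 replicates 1, 2 and 3 and none in B010. Its TMM-scaled levels in B003 were 0.254, 55.8 and 13.1 CPM, a range of 219-fold, so its mean of 23.03 ± 29.1 CPM (SD, n = 3) describes none of the libraries, and without replicate 2 it was 6.67 CPM. Capann_59Chr06g018390 had 60, 622 and 798 counts in B003 and 2, 0 and 0 in B010, and Capann_59Chr12g009580 had 44, 355 and 623 counts in B003 and 0, 0 and 2 in B010. In both genes replicate 1 was more than 10 times below replicate 3, though still far above every B010 library. Without replicate 3, Capann_59Chr12g009580 averaged 6.30 CPM in B003, against 10.95 CPM with it. Capann_59Chr03g015440 was counted 211, 658 and 459 times in B003 against 1, 0 and 3 times in B010, and Capann_59Chr01g017910 was counted 531, 1301 and 953 times in B003 and not at all in B010.

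**Figure D2:**
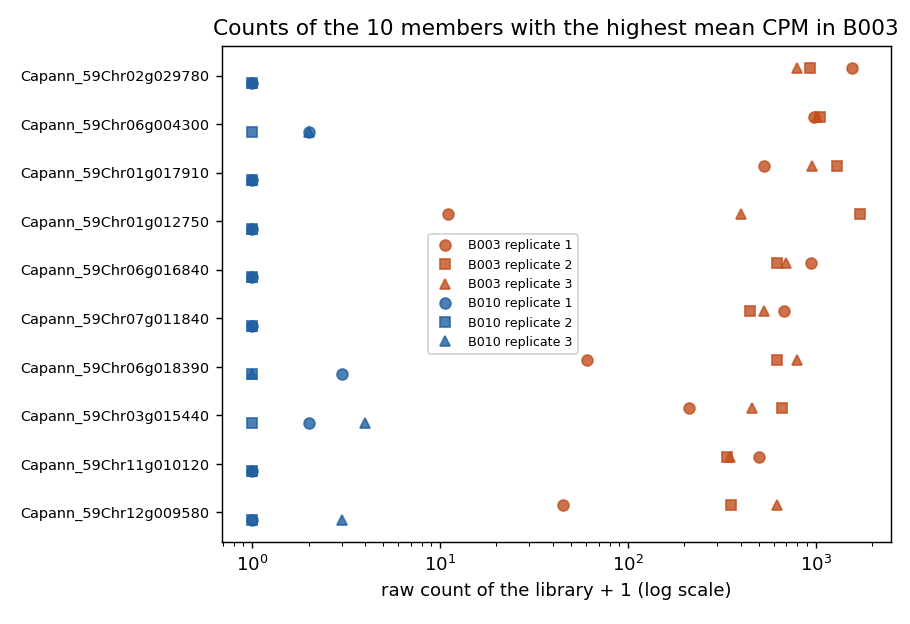
Raw counts plus 1 on a log axis for the 10 genes with the highest mean CPM in B003, with 3 B003 libraries (upper points) and 3 B010 libraries (lower points) per gene, the replicate given by the symbol. By the count limits that chose the genes, every B003 library lies at 10 counts or more and every B010 library at 3 or fewer. In 5 genes B003 replicate 1 (circles) lies more than 2-fold below the mean of the other B003 libraries in scaled CPM.

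This unevenness was found in much of the group. The coefficient of variation of TMM-scaled CPM over the B003 libraries had a median of 29.98% for the 120 genes, against 16.9% for the other 20524 annotated genes. For the 154 annotated genes detected only in B010, described further on, the median was 26.9% over the B010 libraries. The coefficient of other genes over the B010 libraries was not computed, so whether that set was uneven beside them is not known. Over the B003 libraries, the coefficient exceeded 50% in 29 of the 120 genes and was under 20% in 35. In 29 genes, or 24.2%, replicate 1 was more than 2-fold below the mean of replicates 2 and 3, and in 10 genes, or 8.33%, it was more than 2-fold above. Among the other 20524 genes these shares were 8.61% and 5.26%. Replicates 2 and 3 were more than 2-fold apart in 5.83% of the group and in 3.84% of the other genes. The sets also differed in level. Among the 8141 other genes with a mean FPKM no higher than the upper quartile of the group, replicate 1 was more than 2-fold below in 8.62%, and the median coefficient of variation was 20.96%. These genes were limited by FPKM and not matched on counts, on which counting error depends. At the median pooled count of the group, counting error alone gives a coefficient of 10.1%.

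The extremes of the group show both patterns. Capann_59Chr05g004720 had the largest coefficient of variation, 144%, with 608, 10 and 51 counts in B003 replicates 1, 2 and 3 and none in B010. Capann_59Chr05g004780, which stands close to it by identifier, had 284, 13 and 49 counts in B003 and 0, 2 and 1 in B010, with a coefficient of variation of 118%. In both genes replicate 1 was the highest library of B003. Without it their means in B003 were 0.991 and 1.007 CPM, against 5.82 and 3.08 CPM with it, and their implied lengths of 366 and 371 bases were alike. At the other end, Capann_59Chr06g027470 had 240, 194 and 187 counts in B003 and none in B010, and its scaled levels of 6.10, 6.27 and 6.08 CPM in the B003 libraries differed by a coefficient of variation of 1.67%. Capann_59Chr12g025000 and Capann_59Chr11g004460 were almost as even, with coefficients of 2.61% and 3.22% around means of 5.77 and 4.76 CPM in B003. Capann_59Chr11g004460 had no count in B010, and Capann_59Chr12g025000 had 3 counts in B010 replicate 3 only.

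**Figure D3:**
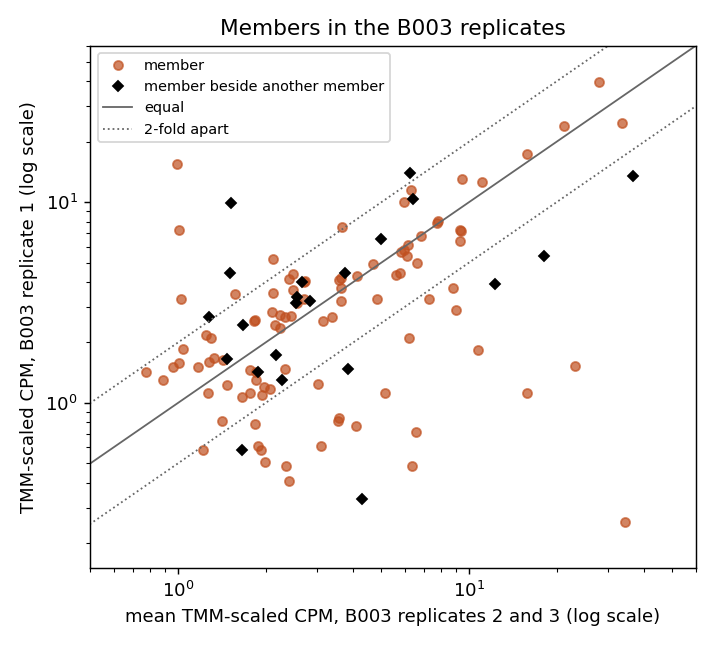
TMM-scaled CPM of each of the 120 genes in B003 replicate 1 against the mean of B003 replicates 2 and 3, both on log axes, with the line of equality and lines at 2-fold. Below the lower dotted line lie 29 genes and above the upper one lie 10; diamonds are genes that stand next to another gene of the group by identifier.

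At the lower edge of the group, levels came close to the limit of the deposited data. Capann_59Chr11g008060 had the lowest mean, 0.993 ± 0.473 CPM in B003 (SD, n = 3), from 56, 33 and 15 counts, against 0, 2 and 0 counts in B010. Capann_59Chr06g036710 was counted 51, 35 and 20 times in B003 against 3, 0 and 0 times in B010, where the pooled ratio was 38.1 with a 95% counting interval from 12.7 to 188. Capann_59Chr12g034270 had only 23, 39 and 36 counts in B003 and 1, 0 and 1 in B010. Its 22.9 ± 7.58 FPKM in B003 (SD, n = 3) would place it among the highest of the group per length, but this rests on an implied length of 43.9 bases. The 5 genes with the smallest count in a B003 library were Capann_59Chr01g012750 and Capann_59Chr05g004720 at 10 counts, Capann_59Chr05g004780 and Capann_59Chr12g029980 at 13 and Capann_59Chr11g008060 at 15. In 98 of the 120 genes every B003 library held at least 30 counts.

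The limit on B010 did not fall in a gap of the counts. Among the annotated genes with at least 10 counts in each B003 library, the highest B010 library held 0 counts in 73 genes, 1 in 11, 2 in 19 and 3 in 17. Just beyond the limit it held 4 counts in 23 genes, 5 in 26 and 6 in 14. The 5 genes described next are those highest by CPM in B003 among the 63 genes with 4 to 6 counts in their highest B010 library, and not those nearest to the limit. Capann_59Chr12g010960 and Capann_59Chr10g005880 averaged 185 and 37.4 CPM in B003, above the 31.9 CPM of the highest gene of the group. Capann_59Chr12g010960 was counted 7515, 6514 and 4749 times in B003 against 5, 0 and 0 times in B010, so that 2 counts of the deepest library kept it out. Capann_59Chr10g005880 had 1274, 1428 and 1035 counts in B003 and 3, 1 and 5 in B010. Capann_59Chr07g016830, Capann_59Chr06g014420 and Capann_59Chr02g021630 had B010 maxima of 5, 5 and 4 counts, and all 3 were lower in B003 replicate 1 than in replicates 2 and 3, for example at 158, 1145 and 1519 counts for Capann_59Chr07g016830.

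All 12 chromosomes carried genes of the group. Chromosome 12 had the most, 16 of 1589 listed annotated genes, followed by chromosome 10 with 14 of 1402. These are 10.1 and 9.99 per 1000 listed genes, against 5.60 per 1000 over the whole genome. Chromosomes 3 and 6 had 13 genes each and chromosome 7 had 10. Chromosome 1, the longest list but one with 2524 genes, had 9, or 3.57 per 1000, and chromosomes 4 and 9 had 6 each. The remaining 2 genes are on a scaffold that is not placed on a chromosome. No test of these shares was made.

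By level, the order of the chromosomes depended on the library. The genes of chromosome 6 summed to 84.7, 102 and 109 CPM in B003 replicates 1, 2 and 3, a mean of 98.7 CPM, and those of chromosome 1 to 27.0, 136 and 81.9 CPM, a mean of 81.8 CPM. Without replicate 1 chromosome 1 came to 109 CPM and chromosome 6 to 106 CPM, and without replicate 2 chromosome 1 came to 54.4 CPM. Capann_59Chr01g012750 alone made up 55.8 CPM of chromosome 1 in replicate 2. Chromosome 12 was also uneven, with 45.2, 80.5 and 99.6 CPM, while chromosome 10 was even, with 70.4, 65.9 and 70.99 CPM. Capann_59Chr06g004300, Capann_59Chr06g016840 and Capann_59Chr06g018390 are all on chromosome 6. Chromosomes 8 and 9, with 8 and 6 genes, did not exceed 17.5 CPM in any B003 library.

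**Figure D4:**
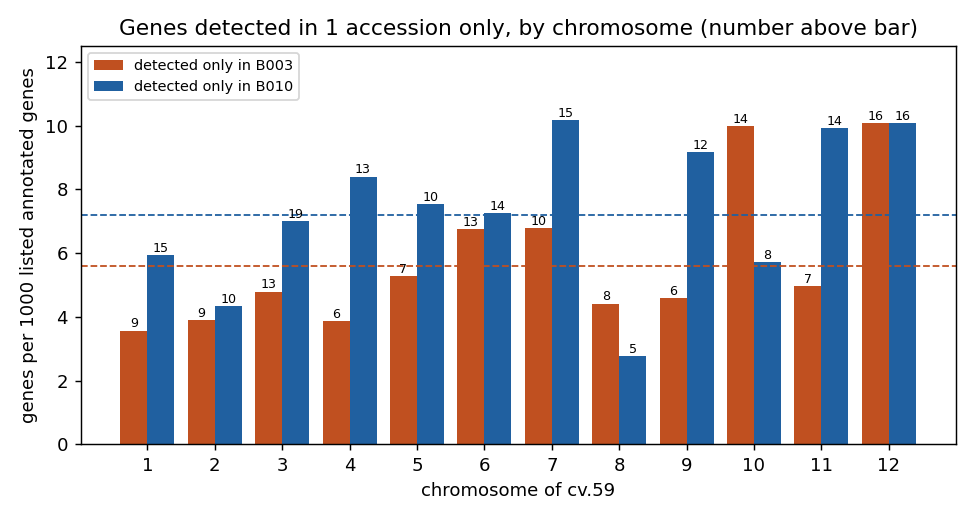
Genes detected only in B003 and genes detected only in B010 per 1000 listed annotated genes of each chromosome, with the number of genes above each bar and dashed lines at the values over all chromosomes, 5.60 and 7.18. Chromosomes 10 and 12 have the tallest B003 bars, and chromosome 8 is, with chromosome 10, where the B003 bar is taller than the B010 bar.

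The mirrored limits, at least 10 counts in each B010 library and at most 3 in each B003 library, gave 154 annotated genes. The group detected only in B003 was thus smaller, at 0.560% of the 21446 genes, against 0.718% for B010. The shares without any count in the other accession were 60.8% for the 120 genes and 68.2% for the 154 genes. Levels were of the same order, with a median of 5.01 FPKM in B003 for the 120 genes and 3.55 FPKM in B010 for the set detected only in B010, whose median implied length was 843 bases. On chromosome 10 the numbers were 14 and 8, on chromosome 8 they were 8 and 5, and on chromosome 12 both were 16, whereas every other chromosome had fewer genes detected only in B003. The same limits took in 4.51% of the 3169 loci named LJ_newGene, 143 loci for B003, and 5.74%, 182 loci, for B010. These loci lie outside the cv.59 identifiers, and how they were defined is not given in the sources used here. B010 replicate 1 was the deepest library, so the limit of 3 counts was strictest there.

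Neighbouring identifiers were next considered. Identifiers of cv.59 rise in steps of 10 along a chromosome, and only listed genes can be placed in this order. Of the 120 genes, 22, or 18.3%, stood directly beside another gene of the group among the listed annotated genes, in 11 pairs and no longer run. Among the other 21326 annotated genes, 1.02% stood beside a gene of the group. In 8 of the 11 pairs the identifiers differed by exactly 10, so that no identifier lies between them. The pairs lay on 9 chromosomes and on the unplaced scaffold, with 2 pairs on chromosome 3. Of the 154 genes detected only in B010, 27, or 17.5%, stood in 13 runs on 6 chromosomes, of up to 3 genes. When B010 replicate 1, the deepest library, was not required to be at 3 counts or fewer, the number of B003 genes in runs was 34 in place of 22.

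**Figure D5:**
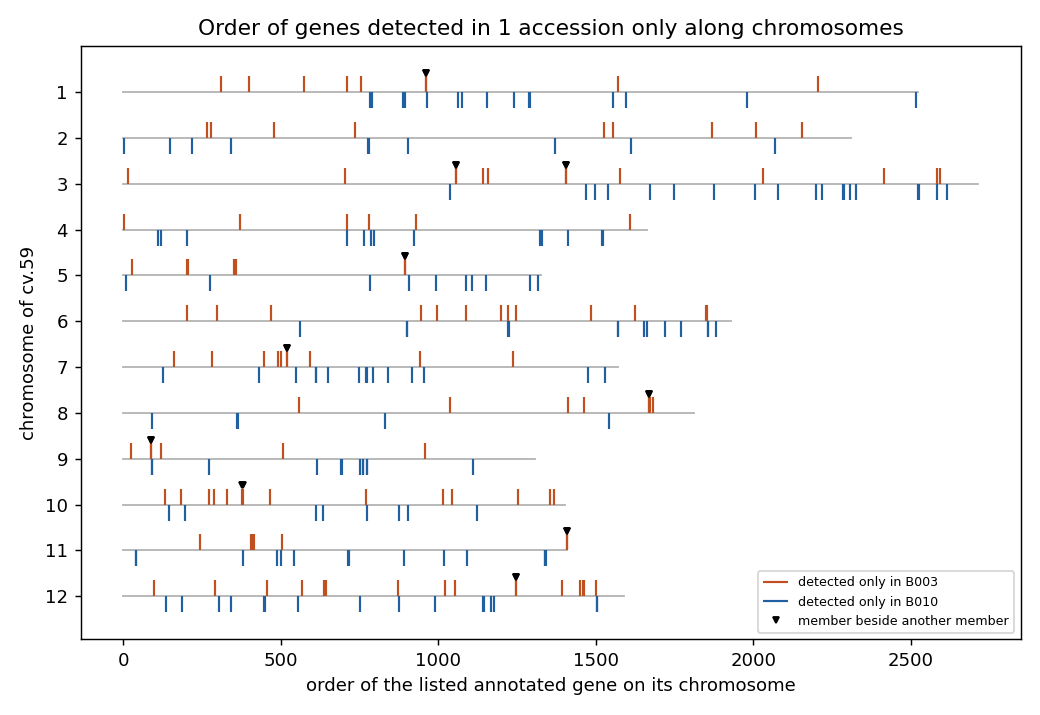
Position in the order of listed annotated genes on each chromosome of the genes detected only in B003 (upward ticks) and only in B010 (downward ticks), with triangles above genes that stand beside another gene of the B003 group. The 120 upward ticks are spread over all 12 chromosomes and the unplaced scaffold, which is not drawn, and 10 of the 11 pairs are seen as triangles.

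Capann_59Chr01g017900 and Capann_59Chr01g017910 formed the most abundant pair by counts. Capann_59Chr01g017900 had 153, 414 and 343 counts in the B003 libraries, its neighbour had 531, 1301 and 953, and neither had a count in B010. In both genes replicate 1 was the lowest and replicate 2 the highest B003 library. Their levels were 3.24 ± 1.59 and 8.64 ± 3.99 FPKM in B003 (SD, n = 3), a ratio of 2.67 between neighbours with like implied lengths of 2836 and 3244 bases.

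Capann_59Chr05g021980 and Capann_59Chr05g021990 also moved together, in the opposite direction. They had 552, 186 and 201 counts and 174, 54 and 39 counts in B003 replicates 1, 2 and 3, and none in B010. Replicate 1 was here the highest B003 library of both genes, and without it the mean of Capann_59Chr05g021990 in B003 was 1.51 CPM, against 2.48 CPM with it. Their implied lengths of 368 and 366 bases differed by less than 1%, which was the case in 2 of the 11 pairs. The other such pair, chosen for this likeness after its values were seen, was Capann_59Chr09g002000 and Capann_59Chr09g002020. Their implied lengths were 1808 and 1806 bases, and their levels in B003 were 1.56 ± 0.373 and 1.73 ± 0.555 FPKM (SD, n = 3). In B010 both had a single count, in replicate 2. Whether such neighbours are copies of one another is not known from the counts, and reads could be divided between them if they are.

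In other pairs the neighbours differed. Capann_59Chr03g015410 had 388, 48 and 46 counts in B003 replicates 1, 2 and 3 and 2, 3 and 2 in B010. Its mean in B003 was 4.31 CPM, and 1.52 CPM without replicate 1, its highest B003 library, while replicate 1 was the lowest for its neighbour Capann_59Chr03g015440 at 211 counts. Capann_59Chr07g012790 was counted 409, 204 and 193 times in B003 and Capann_59Chr07g012800 was counted 56, 76 and 40 times, both without a count in B010. Per length these were close, at 2.49 ± 0.900 and 2.13 ± 0.732 FPKM in B003 (SD, n = 3), since the implied lengths were 3123 and 802 bases. Capann_59Chr03g021490 and Capann_59Chr03g021500 were low throughout, with 59 to 75 and 51 to 83 counts in the B003 libraries, and had 0 and 2 pooled counts in B010. Over the 11 pairs, both genes were highest in the same B003 replicate in 6 pairs and lowest in the same replicate in 7. The mean FPKM of the neighbours was within 1.5 times in 7 pairs, and the largest ratio was 3.95. In 6 pairs neither gene had a count in B010.

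The annotated genes that flank the group without belonging to it were called in either direction in 71 of 216 cases, or 32.9%, against 24.1% of all annotated genes tested. Of the 217 nearest listed genes on either side, 216 were tested, and 41 of these, or 18.98%, were called higher in B003 by edgeR, against 12.7% of all 21588 annotated genes tested. Called lower in B003 were 30, or 13.9%, against 11.4%. Their median log2 fold change of B003 over B010 was -0.04, against 0.01 for all annotated genes tested. Without B010 replicate 1, 11.98% of the flanking genes were called higher in B003, and 6.88% of all annotated genes were. Neighbours by identifier are not independent genes, and the share was not tested.

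In 4 places a gene detected only in B003 stood directly beside a gene detected only in B010. This is 3.33% of the 120 genes, against 1.27% of the other annotated genes. On chromosome 10, Capann_59Chr10g018170 was counted 226, 127 and 242 times in B003 and 0 times in B010, and the next identifier, Capann_59Chr10g018180, was counted 0 times in B003 and 109, 48 and 61 times in B010. The implied lengths of these neighbours were 734 and 756 bases. Capann_59Chr11g010120, described above, lay beside Capann_59Chr11g010100, which had 0 counts in B003 and 462, 455 and 341 in B010, with 1 unlisted identifier between them. Their levels were 13.7 ± 1.98 FPKM in B003 and 32.1 ± 7.19 FPKM in B010 (SD, n = 3), each in the accession where the gene was counted. Their implied lengths were 842 and 373 bases. Capann_59Chr06g021450 had 63, 37 and 42 counts in B003, and its neighbour Capann_59Chr06g021430 had 51, 36 and 86 in B010, with 0 counts of each in the other accession. Capann_59Chr04g011490 was counted 105, 69 and 75 times in B003, and Capann_59Chr04g011430 was counted 299, 121 and 121 times in B010, but 5 identifiers that are not listed lie between them.

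The identifiers around the group were somewhat less often listed. Of the 10 nearest possible identifiers, 5 on each side, a mean of 4.73 were listed for the 120 genes and 4.44 for the 154 genes detected only in B010, against 5.70 for all 21446 annotated genes. At most 2 were listed around 12 of the 120 genes and around 8.33% of all annotated genes. An identifier that is not listed can be a gene below the entry level of the data or a number that was not assigned, and these cannot be told apart here.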

How the data were processed

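The authors filtered paired reads with Fastq, aligned them to the C. annuum cv.59 genome with HISAT2 and deposited raw counts and FPKM per gene; per the labels, StringTie was also used. The counting program, its use of strand and its treatment of reads that align to several places are not given in the sources used here. The authors' deposited log2 fold changes and p-values (with q-values) hold their own comparison of the accessions and were not used. Columns were assigned to accessions and replicates by the first line of the table, and 0 columns were left unused. Total counts were between 29891192 and 47659515 per library. No line names a total or an unassigned class.

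The 120 genes and the lists were chosen with earlier results of these data known. Counts were fitted with edgeR 4.0.16 in R 4.3.3 (expression filter, TMM, quasi-likelihood test of B003 over B010, Benjamini-Hochberg adjustment over 24738 genes), after the script was tested on simulated data. Alternatives were the Wald test of DESeq2 1.42.0, limma 3.58.1 on log2(FPKM + 1) and log2(FPKM + 0.1), RLE factors, no filter, other fold limits, the replicate number as a block, other count limits, other definitions of neighbours and the omission of each library. Implied exon length was the count divided by FPKM and by the total counts of the library, as the median over libraries. Ratios of pooled levels have exact binomial 95% intervals.

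The genes named are the 10 with the highest and the 3 with the lowest mean CPM in B003, the 5 with the lowest count in a B003 library, the 5 highest in B003 among genes with 4 to 6 counts in their highest B010 library, those of the first 5 runs, the 3 with the largest and the 3 with the smallest coefficient of variation, and those beside a gene detected only in B010. None is named in the text of the study. No identifier, 0 of 24829, matched the RefSeq gene table of the UCD10Xv1.1 assembly, so no names, coordinates or sequences are given. The counts of replicate libraries were not duplicates of each other, with a chi-square per degree of freedom of at least 28.7 within accessions. The labels do not say that equal replicate numbers mark a shared batch.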

Additional observations from a re-analysis of the deposited data

How the results depend on the processing

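The number of genes in the group depends on the limit set for B010: it was 73 when no count was allowed there and 235 when 10 were, in place of 120. With these limits, 12 and 57 genes stood in runs, in place of 22. With a library left out of the limits, the number of genes was between 121 and 148 and the number in runs between 22 and 34, the highest in both cases without B010 replicate 1. Other minima in B003, 5 or 20 counts, gave 125 and 112 genes, and detection on CPM gave 122, of which 113 were shared. The entry level of the data, about 1 CPM in 2 libraries, equals 32.0 to 37.0 counts in a B003 library. These minima could thus act only on the remaining B003 library of a gene. The median level in B003 was 2.97 CPM, 2.90 without scaling and between 2.68 and 3.06 with a B003 library left out. The share of flanking genes called higher in B003 was between 11.98% and 19.4% with a library left out, and that of all annotated genes between 6.88% and 14.8%. Under the replicate block, these shares were 17.6% and 10.7%, and 118 of the group were called, as without it, beside 10.9% of all genes. Other tests and thresholds called between 111 and 120 of the group and between 6.05% and 20.2% of all genes (DESeq2: 120 and 14.4%), and leaving out a library called between 110 and 119 of the group and between 7.28% and 14.8% of all genes. No log2 fold change of the group fell below 0 in any of the 13 fits. Same-numbered libraries had correlations of their deviations of -0.00318, 0.0763 and 0.178. Those of differently numbered libraries lay between -0.170 and 0.0861. Whether the numbers pair the libraries was not tested. In 6 of the 30 genes named by the stated rule, leaving out a B003 library moved the mean level by more than 1.5 times. The share with replicate 1 of B003 more than 2-fold low was 24.2%, and 22.5% without scaling, an alternative chosen after the data were seen.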
